A study of Mus musculus with 2 samples.

Results

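The interferon response genes and receptors are 39 genes of the mouse innate antiviral system, chosen by symbol from a list that names transcription factors, receptor chains, nucleic acid sensors and induced effector genes. All 39 were found in the gene tables of both libraries, among 43346 Ensembl genes in all. They were measured by total RNA-seq in the intestine of 2 newborn mice of the B6NCrl strain, aged 0 days, littermates from 1 dam, with 1 library per animal. The animals carry no described allele and received no described treatment, their sex was not collected, and no source used here says which segment of gut was taken. Each library was made from 10 ng of RNA longer than 200 nt with exogenous spike-in transcripts added. The libraries are named pup 1 and pup 2 after the labels and form 1 group, so the data give the level of each gene at birth and the difference between littermates.

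Type I interferons signal through a receptor of the chains Ifnar1 and Ifnar2, and type III interferons through Ifnlr1 paired with Il10rb, which other cytokines of the interleukin-10 family share. Both receptors activate Stat2, which joins Irf9 in a complex that binds the interferon-stimulated response element (ISRE) in front of its target genes. In the intestine the type III receptor is known mainly as a receptor of epithelial cells, and many of the induced genes are also held at a basal level without infection.

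A promoter sequence found in part of these genes is shown before their levels. The genes were chosen by symbol and not by this sequence. The list is one of interferon response genes, however, so the share that holds the sequence is not independent of the choice. Promoter windows came from RefSeq on GRCm38.p6 and ran from 250 bases before to 50 bases after the annotated start, 300 bases in all. Of the 39 genes, 29 had a window. Il10rb, Oas2, Mx1, Zbp1, Dhx58, Rtp4, Parp9, Usp18, Ifi27 and Mx2 had none. The ISRE core was searched on both strands as GAAA, any 2 bases and GAAA again, and 12 of the 29 genes (41.4%) held it, against 1079 of 27025 genes with a window (3.99%). The stretches below are written 5′ to 3′ on the strand of the gene, with each match in capitals. Overlapping matches run together, and a match on the other strand reads as TTTC, any 2 bases and TTTC.
Isg15 (chr4:156200859-156200912, minus strand): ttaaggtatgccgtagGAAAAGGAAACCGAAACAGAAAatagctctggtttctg
Ifit1 (chr19:34640769-34640829, plus strand): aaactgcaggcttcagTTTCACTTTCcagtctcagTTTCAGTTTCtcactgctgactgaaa
Ifit3 (chr19:34583357-34583432, plus strand): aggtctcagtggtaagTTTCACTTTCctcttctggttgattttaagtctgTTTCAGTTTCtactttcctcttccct
Ifit3b (chr19:34607753-34607828, plus strand): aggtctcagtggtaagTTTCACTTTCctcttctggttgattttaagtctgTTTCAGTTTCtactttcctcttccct
Oas1a (chr5:120907526-120907561, minus strand): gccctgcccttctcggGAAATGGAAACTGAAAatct
Oas1g (chr5:120887614-120887647, minus strand): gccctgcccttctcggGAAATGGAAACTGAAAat
Oas3 (chr5:120777709-120777750, minus strand): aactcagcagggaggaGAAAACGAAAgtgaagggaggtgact
Bst2 (chr8:71537571-71537618, minus strand): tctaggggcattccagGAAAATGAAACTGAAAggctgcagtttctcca
Rsad2 (chr12:26456547-26456588, minus strand): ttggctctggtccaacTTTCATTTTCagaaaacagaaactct
Stat2 (chr10:128270260-128270301, plus strand): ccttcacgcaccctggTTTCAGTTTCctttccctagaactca

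The Isg15 promoter held 3 overlapping matches, which began 78, 72 and 66 bases before the start. Ifit1, Ifit3, Ifit3b, Oas1a, Oas1g and Bst2 held 2 each. In Oas1a the matches began 20 and 14 bases before the start, and in Oas1g 18 and 12 bases before it. The stretches of Ifit3 and Ifit3b are the same letter for letter, and over the aligned part of their windows 258 of 260 bases were identical (99.2%). The windows of Oas1a and Oas1g shared 261 of 294 aligned bases (88.8%). Ifih1 and Ddx58 held their match after the start, inside the transcribed part, and are not printed.

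A further short motif, the gamma-activated site, was searched as TTCNNNGAA, which reads the same on both strands. It was present in 8 of 29 genes (27.6%), against 9.55% of all genes with a window, namely Bst2, Ifi35, Ifit2, Ifnar1, Ifnar2, Irf1, Oas1a and Samhd1. In Bst2 this match overlapped the ISRE core, while in Oas1a it lay apart from it, 98 bases before the start. The match of Irf1, a gene known to respond early to interferon gamma, began 90 bases before the start.
Irf1 (chr11:53769908-53769948, plus strand): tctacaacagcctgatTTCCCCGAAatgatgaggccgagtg
The window of Irf7 held neither string. Such a match describes letters in a window and was not tested as a binding site.

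Pup 1 was sequenced more deeply, with 44568098 expected counts over all genes against 34797495 in pup 2, where an expected count is an estimate that divides reads shared between genes. Levels are given in TPM, the deposited abundance scaled to transcript length and to a fixed total, for pup 1 and pup 2 in that order, and a mean carries its SD over the pups (n = 2). Counting intervals and floors cover counting error only: the reads carry no molecular identifiers and can repeat a molecule. No p-value is given, because with 2 animals the smallest p of an exact sign-flip test is 0.5. The tissue label was checked against markers. The 6 epithelial markers were all at 1 TPM or more, led by Fabp2 and Epcam, and summed to 14888 and 13940.2 TPM. The 4 macrophage markers, led by Csf1r and C1qb, summed to 178 and 173 TPM, and none of the 4 lymphocyte markers, led by Cd3e and Cd79a, reached 1 TPM in both pups (sums 0.72 and 0.39 TPM). Markers of plasmacytoid dendritic cells, a cell type known for high Irf7, summed to 37.4 and 30.6 TPM. Klk1 made up most of that sum (31.4 and 20.3 TPM), Ly6d was at 3.71 and 7.88 TPM, and Siglech, named after its values were seen, was at 1.10 and 1.39 TPM. Smooth muscle markers (led by Actg2 and Acta2) summed to 3537 and 3709 TPM, fibroblast markers (Col3a1 and Col1a1) to 1012 and 1054 TPM, blood endothelium markers (Plvap and Esam) to 140.4 and 140.6 TPM and enteric neuron markers (Uchl1 and Stmn2) to 119.7 and 116 TPM. The 4 genes listed as liver markers summed to 490.0 and 469.9 TPM. Ttr (335 and 310 TPM) and Apob (100.5 and 102.1 TPM) made up most of that sum. Alb, named after its values were seen, was at 0.79 and 0.86 TPM. Whether liver or gut cells made the RNA of these genes was not tested. Which cells carried the RNA of a gene cannot be read from bulk tissue, where fewer cells of a type and less RNA per cell cannot be told apart.

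Most of the interferon response genes were expressed in the newborn gut. At 1 TPM or more in both pups, 34 of 39 were detected, against 59.1% of the 21461 nuclear protein-coding genes. The median over the 39 genes was 17.9 ± 1.49 TPM, the median over all nuclear protein-coding genes 2.97 TPM, and the median over the 12678 of these that were detected 12.5 ± 0.354 TPM. By mean level 11 genes stood at 50 TPM or more, 7 between 20 and 50, 10 between 10 and 20, 3 between 5 and 10, 4 between 1 and 5 and 4 under 1 TPM. The highest level belonged to the factor Irf7 and the lowest to Oas2, with means of 99.3 and 0.26 TPM. The 5 genes not detected were Oas2, Mx1, Mx2, Oas3 and Ifi44, and Ifi44 missed the limit in pup 1 only. Levels did not separate genes with the ISRE core from those without it in their window, with medians of 20.7 and 19.7 TPM and ranges that overlapped (0.59 to 73.1 and 1.01 to 99.3 TPM). For the gamma-activated site the medians were 54.3 TPM in the 8 genes with it and 16.2 TPM in those without it. These ranges overlapped too (11.35 to 81.3 and 0.59 to 99.3 TPM), and the difference was not tested.

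**Figure D1:**
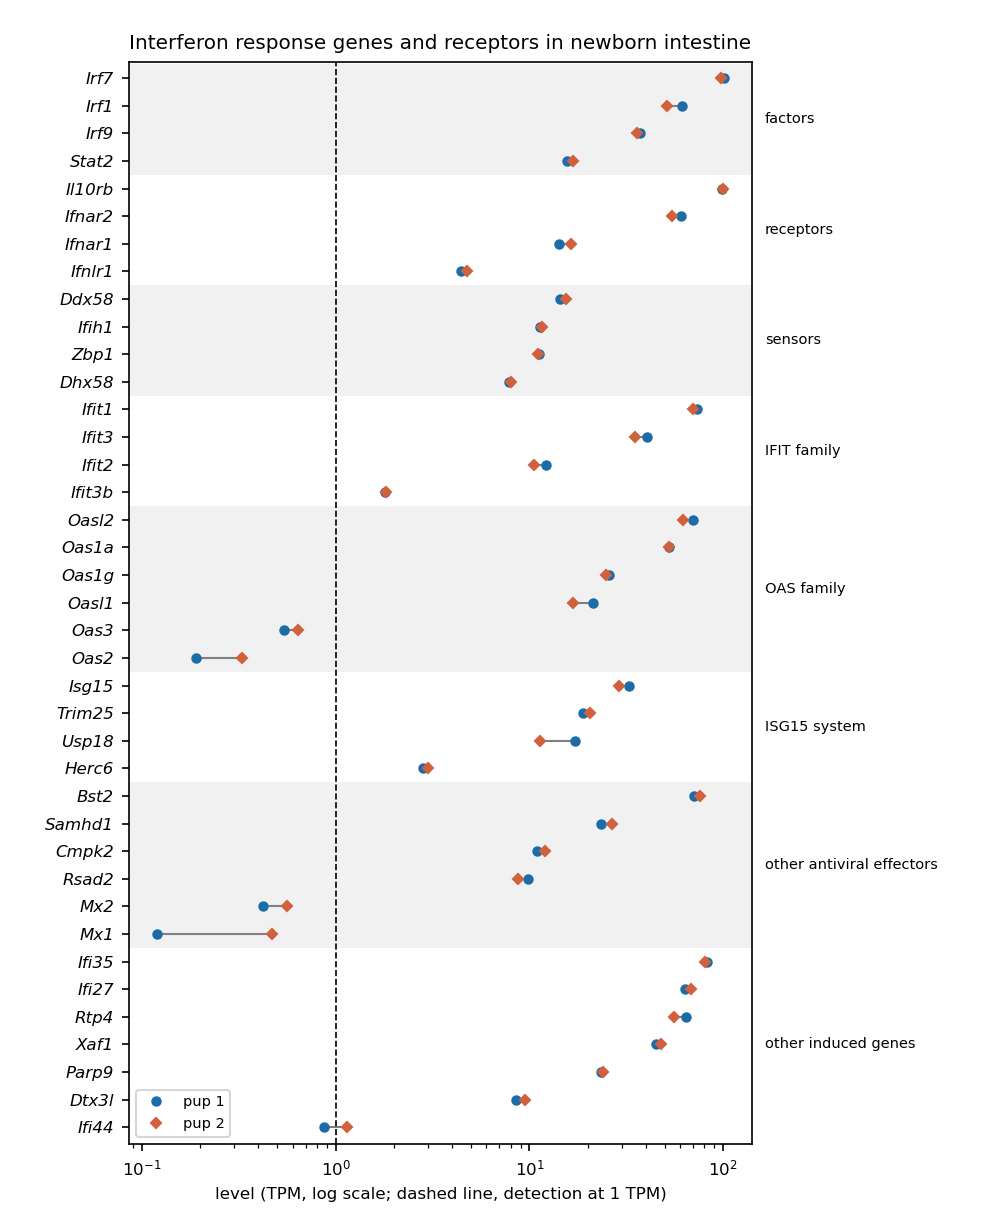
Level of each of the 39 genes in TPM on a log axis, grouped by role, with a circle for pup 1, a diamond for pup 2, a line joining them and a dashed line at 1 TPM. Most pairs of points nearly touch, the widest gap is that of Mx1, and Oas2, Oas3, Mx1 and Mx2 lie left of the dashed line in both pups.

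**Figure D2:**
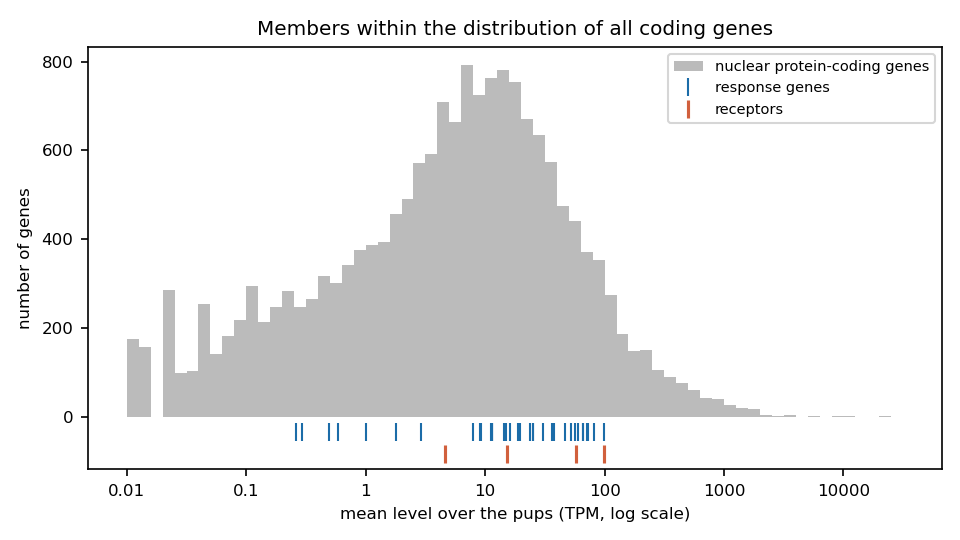
Histogram of the mean level of nuclear protein-coding genes in TPM on a log axis, with genes under 0.01 TPM not drawn, above ticks for the response genes and the 4 receptor chains. The ticks run from 0.26 to 99.3 TPM, most of them right of the peak, and none reaches the highest levels of the histogram.

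The transcription factors were all detected, with a median of 46.4 ± 3.96 TPM. Irf7 (ENSMUSG00000025498.10, chromosome 7, 141262706 to 141266481 on GRCm38, the assembly of all coordinates here) is the factor that amplifies interferon gene transcription. It stood at 101 and 97.7 TPM, above 94.0% of nuclear protein-coding genes. Irf1, which responds to interferon gamma and binds related promoter sites, was at 61.0 and 51.4 TPM. Irf9, the subunit of the ISRE-binding complex that contacts DNA, was at 37.4 and 35.8 TPM, and Stat2, its partner with the activation domain, at 15.6 and 16.8 TPM. The order Irf7, Irf1, Irf9, Stat2 was the same in both pups, with no overlap between neighbours. Irf7 exceeded Irf1 by 1.77-fold (log2 0.83 ± 0.14) and Irf9 by 2.71-fold (log2 1.44 ± 0.01). Irf9 exceeded Stat2 by 2.25-fold (log2 1.17 ± 0.12), a ratio that fell to log2 0.14 on read counts without length scaling. Irf7 overlaps Phrf1 on the opposite strand (1909 and 1624 counts) and Irf9 overlaps Rnf31 on the same strand (1010.0 and 778 counts), and no source used here says whether the counting used strand.

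The receptor chains differed widely in level. Il10rb (chromosome 16, 91406164 to 91425834) was at 98.2 and 99.2 TPM and Ifnlr1 (chromosome 4, 135686287 to 135708181), the chain that gives the type III receptor its specificity, at 4.42 and 4.76 TPM. Il10rb thus exceeded its partner by 21.1-fold (log2 4.40 ± 0.06), or by log2 3.17 on counts without length scaling. Ifnar2 (chromosome 16, 91372783 to 91405589) was at 60.5 and 54.7 TPM and Ifnar1 (chromosome 16, 91485238 to 91507441) at 14.2 and 16.4 TPM, and the pups did not overlap between any pair of chains. Ifnar2 exceeded Ifnar1 by 3.74-fold (log2 of Ifnar1 over Ifnar2 −1.90 ± 0.25), and Ifnar1 exceeded Ifnlr1 by 3.28-fold (log2 1.71 ± 0.07). Without length scaling the Ifnar1 over Ifnar2 ratio shrank to log2 −0.49 and −0.21 in pups 1 and 2, so most of its size in TPM came from length scaling. The receptor of interferon gamma, which is not on the list, had Ifngr2 at 107 and 113 TPM and Ifngr1 at 73.5 and 72.4 TPM, and Ifngr1 exceeded Ifnar1 by 4.75-fold (log2 2.25 ± 0.16, and 1.49 without length scaling).

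The Ifnar2 level was carried mainly by a short transcript. Ifnar2-203, of 1099 nt with a complete reading frame of 248 codons, held 87.8% and 86.5% of the gene's TPM (1909 and 1303 counts). Ifnar2-201, of 3047 nt with 513 codons, held 6.66% and 8.75%, which is 4.02 and 4.79 TPM (427 and 389 counts). Ifnar2 is known to be made as a full-length transmembrane chain and as shorter and soluble forms, and which form the 248-codon frame encodes was not examined. Ifnar1 has the same 590-codon frame in both of its leading transcripts, Ifnar1-201 (62.7% and 60.6%) and Ifnar1-202 (23.0% and 22.1%).

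The nucleic acid sensors formed the narrowest group, from 7.91 to 14.9 TPM in mean level with a median of 11.3 ± 0.08 TPM. Ddx58, which encodes the sensor RIG-I for RNA with a 5′ triphosphate, was at 14.4 and 15.5 TPM. Ifih1, which encodes MDA5, the sensor of long double-stranded RNA, was at 11.3 and 11.6 TPM. Zbp1, which binds Z-form nucleic acids and can trigger cell death, was at 11.2 and 11.1 TPM, so Ifih1 and Zbp1 were the closest neighbours of the group. Dhx58, which encodes LGP2, a relative that lacks the signalling domains, was at 7.81 and 8.01 TPM. Ddx58 exceeded Dhx58 by 1.87-fold (log2 of Dhx58 over Ddx58 −0.91 ± 0.05, and −1.54 without length scaling). Ddx58 exceeded Ifih1 by 1.30-fold (log2 of Ifih1 over Ddx58 −0.38 ± 0.05), and the direction turned without length scaling (log2 0.039).

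The ISG15 system had a median of 17.0 ± 1.53 TPM. Isg15 (chromosome 4, 156199424 to 156200818), a ubiquitin-like protein joined to other proteins in infected cells, was at 32.5 and 28.9 TPM. Trim25, a ubiquitin ligase that acts on RIG-I, was at 18.9 and 20.4 TPM, and Herc6, the ligase that attaches Isg15 in the mouse, at 2.84 and 3.0 TPM. Usp18 (chromosome 6, 121245906 to 121270917), which removes Isg15 and damps the signal at Ifnar2, was at 17.2 and 11.4 TPM, the largest ratio between pups in TPM among the members above 2 TPM in both. Isg15 stood 2.18-fold above Usp18 (log2 1.12 ± 0.30), whereas on read counts without length scaling Usp18 was the higher (log2 −0.22).

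The OAS genes make or relate to the synthetases of 2-5A, a small nucleotide messenger of antiviral defence. All 6 lie on chromosome 5. Oasl2 was at 70.0 and 61.7 TPM, Oas1a at 52.6 and 52.3 TPM, Oas1g at 25.6 and 24.9 TPM and Oasl1, a member without synthetase activity, at 21.2 and 16.8 TPM. Oas3 and Oas2, the larger synthetases, were at 0.54 and 0.64 TPM and at 0.19 and 0.33 TPM, below detection in both pups (89 and 73 counts, 22 and 26 counts). The 4 detected genes were thus each above 16 TPM and the 2 others each below 1 TPM. Oasl2 exceeded Oasl1 by 3.47-fold (log2 1.79 ± 0.11) and Oas1a exceeded Oas1g by 2.07-fold (log2 1.05 ± 0.02). The log2 ratio of Oas2 to Oas3 depended on the pseudocount, at −0.96 ± 0.25 with 0.1 TPM and −0.34 with 1 TPM, and was −1.75 on counts.

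Oas1a and Oas1g are near copies, so reads shared between them had to be divided. Their transcripts Oas1a-201 and Oas1g-201 were 97.5% identical over 1860 aligned bases, and 54.1% of the 50-base windows of Oas1g-201 also occurred in Oas1a-201. The deposited posterior SD of the count was 26.6 and 24.2 for either gene, against 1350.4 and 984 counts for Oas1g and 3378 and 2575 counts for Oas1a. The estimated error of the split was thus small beside the counts.

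The IFIT genes, whose proteins bind foreign RNA, lie within 99.3 kb on chromosome 19 and were all detected. Ifit1 (34640871 to 34650009), which binds RNA with an unmethylated cap, was at 72.8 and 69.8 TPM. Ifit3 (34583531 to 34588731) was at 40.3 and 34.9 TPM. Ifit2 was at 12.2 and 10.6 TPM, and Ifit3b (34607970 to 34613401), the near copy of Ifit3, at 1.79 and 1.83 TPM. Neighbours in that order did not overlap. Ifit1 exceeded Ifit2 by 6.25-fold (log2 2.64 ± 0.10). Ifit3 exceeded Ifit3b by 19.7-fold (log2 4.30 ± 0.17), although the printed promoter stretches of the pair are identical. The transcripts Ifit3b-201 and Ifit3-201 were 98.0% identical over 1697 aligned bases, 44.5% of the 50-base windows of Ifit3b-201 occurred in Ifit3-201, and the posterior SD of the count was 6.88 and 5.87, against 122 and 95.8 counts for Ifit3b.

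The other antiviral effectors split into detected genes and a nearly silent pair. Bst2 (chromosome 8, 71534255 to 71537456), which encodes tetherin, a protein that holds budding virus at the cell surface, was at 70.4 and 75.8 TPM. Samhd1, which degrades the nucleotides that reverse transcription needs, was at 23.5 and 26.8 TPM. Cmpk2, a mitochondrial nucleotide kinase, was at 11.0 and 12.0 TPM and its chromosome 12 neighbour Rsad2, which encodes viperin, at 9.82 and 8.69 TPM. The ratio of Cmpk2 to Rsad2 was within 2 SD of no difference (log2 0.31 ± 0.21). Mx1 and Mx2 encode dynamin-like GTPases that block viruses, and both are known to be defective in many laboratory strains. Mx2 is annotated as a polymorphic pseudogene. Mx1 (chromosome 16, 97447035 to 97462907) had 11.2 and 36 counts (0.12 and 0.47 TPM) and Mx2 (chromosome 16, 97535308 to 97560900) 34.8 and 36 counts (0.42 and 0.56 TPM), and their ratio was within 2 SD of no difference (log2 0.73 ± 0.73).

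The remaining induced genes had a median of 46.3 ± 2.09 TPM, and 6 of 7 were detected. Ifi35, a binding partner of Nmi, led them at 82.1 and 80.5 TPM, followed by Ifi27, a small hydrophobic membrane protein, at 63.7 and 68.3 TPM and Rtp4, a chaperone of cell surface receptors, at 64.3 and 55.4 TPM. The ranges of Ifi27 and Rtp4 overlapped, so their order is not resolved. Xaf1, a partner of the apoptosis inhibitor Xiap, was at 44.8 and 47.8 TPM. Parp9, an ADP-ribosyltransferase family member, and Dtx3l, the ubiquitin ligase it pairs with, were at 23.5 and 24.0 TPM and at 8.54 and 9.46 TPM, a 2.62-fold difference (log2 1.39 ± 0.08, and 0.53 without length scaling). These genes overlap on opposite strands of chromosome 16, with a posterior SD of 2.98 and 3.11 counts for either. Ifi44, a GTP-binding protein family member, was at 0.87 and 1.15 TPM.

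**Figure D3:**
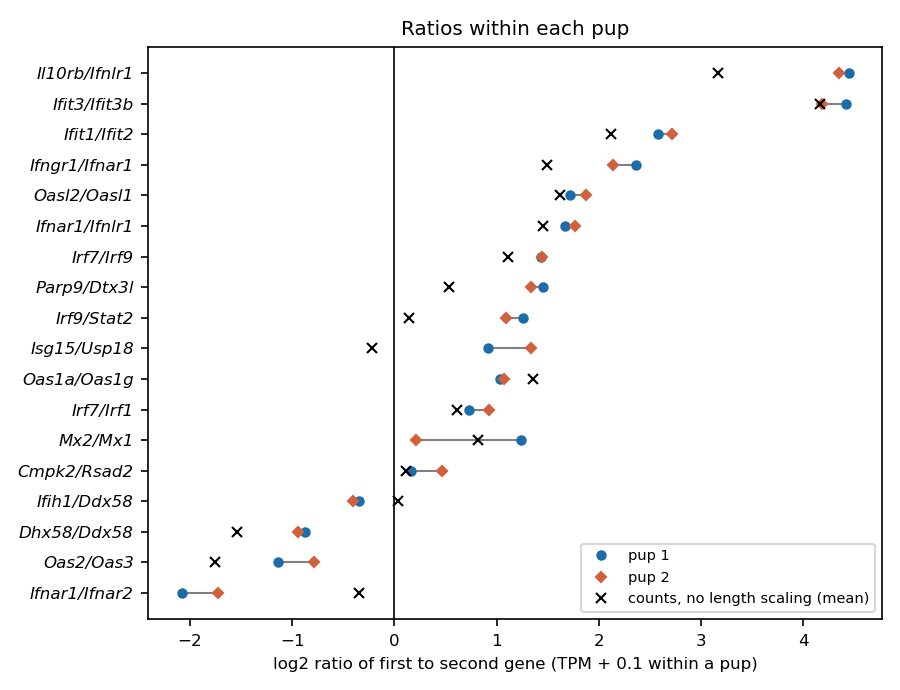
Log2 ratio of the first to the second gene of 18 pairs within each pup, from TPM + 0.1, with circles for pup 1, diamonds for pup 2 and crosses for the mean ratio of read counts without length scaling. In 16 of 18 pairs the mean lay more than 2 SD from 0, and the crosses of Isg15/Usp18 and Ifih1/Ddx58 fall on the other side of 0.

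Of the 39 genes, 11 have 1 annotated transcript and 28 have several. Of the 23 detected genes with several, 22 had the same leading transcript in both pups, and Trim25 was the exception, with Trim25-202 (387 codons) at 50.8% and 48.7% and Trim25-203 (634 codons) at 49.2% and 51.3%. In 3 genes, Oas1g, Oasl2 and Xaf1, transcripts not annotated as protein-coding held 50% or more of the gene's TPM in both pups. In Oas1g the transcript Oas1g-203, annotated as a target of nonsense-mediated decay, held 71.3% and 77.1%, and the 367-codon Oas1g-201 held 23.4% and 17.3%. In Oasl2 the decay target Oasl2-205 held 53.3% and 57.4%, and the 508-codon Oasl2-201 held 15.2% and 14.6%. In Xaf1 the decay target Xaf1-201 held 52.5% and 53.9%, Xaf1-202 (178 codons) 39.2% and 38.3%, and Xaf1-204 (273 codons) 7.29% and 6.93%.

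Other genes divided their TPM between long and short reading frames. Zbp1-202, with 187 codons, held 87.6% and 82.9% of the Zbp1 level, and Zbp1-201, with 411 codons, 10.8% and 16.1%. Ifih1-201 (1025 codons) held 47.9% and 45.8% and Ifih1-202 (976 codons) 44.9% and 38.1%. Irf7-201 (457 codons) held 53.3% and 52.6% and Irf7-202 (426 codons) 21.0% and 22.0%. Among detected genes the shares moved most between pups in Oasl1, where Oasl1-201 went from 0.78% to 25.3% and Oasl1-202, with the same number of codons (511), from 86.9% to 64.6%. Transcript shares are model estimates from short reads, and a share of TPM gives a short transcript more weight per read than a long one. The reading frames are those of GENCODE M21, and the transcript lengths and values were deposited for GENCODE M4.

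**Figure D4:**
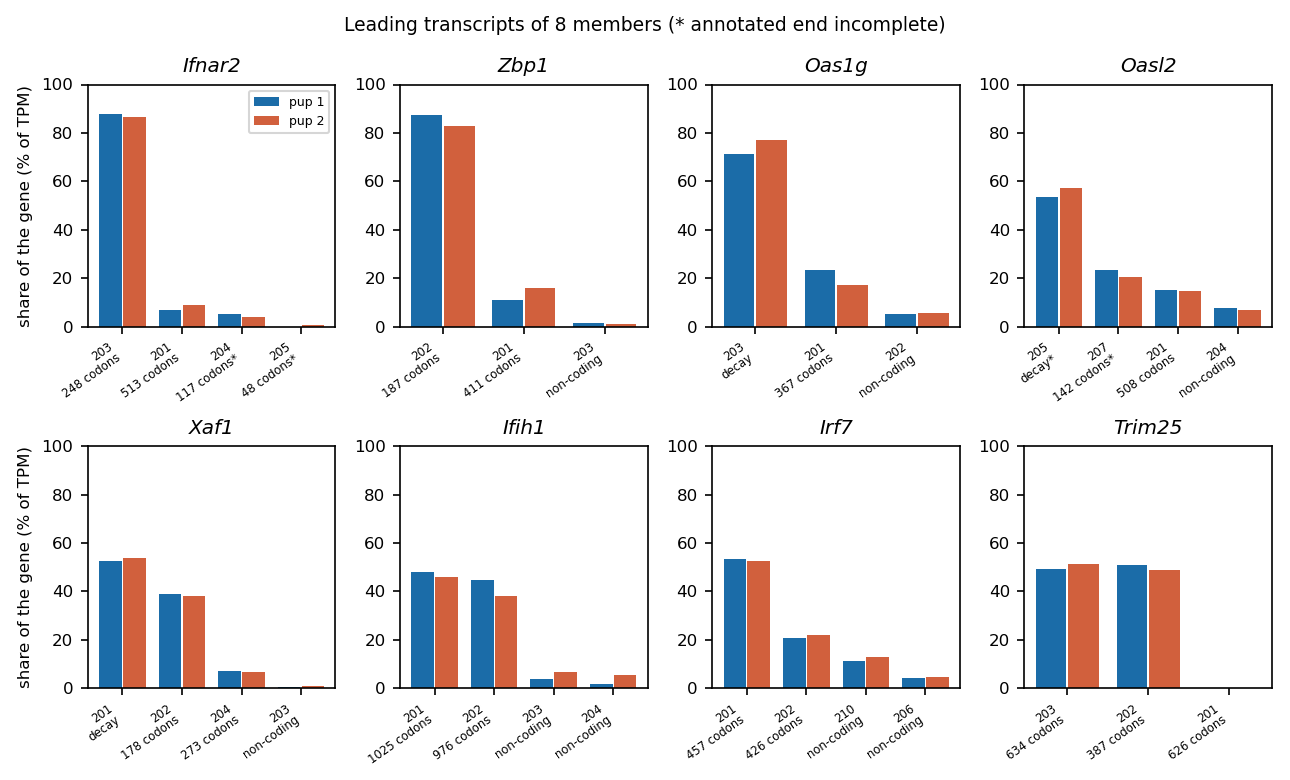
Share of the gene's TPM in percent held by the leading annotated transcripts of 8 genes, with a bar for each pup and the number of codons or the class under each bar, an asterisk marking an incomplete annotated end. The tallest bars of Ifnar2 and Zbp1 belong to frames of 248 and 187 codons, and those of Oas1g, Oasl2 and Xaf1 to decay targets.

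The ligands of these receptors were at or near 0. Of 21 interferon genes, none was detected and 16 had no read in either pup, among them Ifnb1, Ifnl2 and Ifnl3. The 5 with a read were Ifnk (5 and 8 counts), Ifne (1 and 2 counts), Ifna2 (0 and 2 counts), Ifnz (6.83 and 0 counts) and Ifng (1 and 0 counts). All interferon genes together had 13.8 and 12.0 counts. A count of 0 allows up to 3 counts, a floor of 0.0673 CPM in pup 1 and 0.0862 CPM in pup 2 (counts scaled to library size), and transcripts below it were not detectable at this depth.

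The signalling genes between receptor and nucleus were present. All 5 kinases and STATs were detected, among them Stat3 at 49.4 and 54.6 TPM, Jak1 at 35.9 and 35.9 TPM and Jak2 at 8.97 and 9.35 TPM. Of 6 further interferon regulatory factors 5 were detected, led by Irf8 (68.4 and 74.6 TPM), a factor of myeloid cells. Irf3, the factor that starts interferon transcription, was at 33.6 and 33.5 TPM and Irf2, a competitor of Irf1, at 13.4 and 12.4 TPM. All 5 further genes that restrain the pathway, a list without Usp18, were detected. They were led by Ptpn6 (14.3 and 14.0 TPM), Socs3 (12.6 and 12.8 TPM), Pias1 (12.3 and 12.5 TPM) and Irf2bp2 (10.7 and 12.0 TPM). Of 5 sensor adaptors 4 were detected, led by Mavs, the adaptor of RIG-I and MDA5, at 21.9 and 22.9 TPM and its kinase Tbk1 at 20.9 and 21.9 TPM. Ikbke, a relative of Tbk1, was at 6.69 and 8.33 TPM, and Tmem173, which encodes the DNA sensing adaptor STING, at 3.76 and 3.41 TPM.

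A further 42 induced genes that are no members gave 38 detected. They were led by Ifitm2, Ifitm3 and Ifitm1, membrane proteins that block virus entry, at 618 and 574 TPM, 268 and 260.1 TPM and 107 and 98.4 TPM, and by Lgals3bp, a secreted glycoprotein, at 307 and 279 TPM. The mean level of each was above that of Irf7, which had the highest mean of the 39 genes. Over these 42 genes the median log2 ratio of pup 2 to pup 1 was −0.0043. The interval of the ratio lay under 1 in 12 of 42 and above 1 in 7 of 42, against 16.6% and 13.0% of all genes tested. Deeply counted genes are called at smaller ratios. Among protein-coding genes with a summed count of 1000 or more, a depth not reached by all 42, the shares were 25.5% and 17.2%.

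Between the littermates 32 of the 39 genes lay within 1.25-fold, a share that was not computed over all genes. The 5th and 95th percentiles of the log2 ratio of pup 2 to pup 1 were −0.34 and 0.36 over the 39 genes. Over the 19088 genes tested they were −0.58 and 0.64. Ratios of pup 2 to pup 1 were computed from counts scaled by effective library size, with an exact 95% interval (Clopper-Pearson) for counting error, which does not cover the biological spread between animals. All 39 had a summed count of 10 or more and were tested. Mx1 was the only gene of the 39 whose interval lay wholly beyond 2-fold, 4.08-fold higher in pup 2 (interval 2.03 to 8.89) on 11.2 and 36 counts, where 0.796% of the 19088 genes tested did so. The interval lay under 1, with the gene higher in pup 1, in 15 of 39 genes, against 16.6% of all genes tested. It lay above 1, with the gene higher in pup 2, in 3 of 39, against 13.0%, and it held 1 in 21.

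Deeply counted genes are called at smaller ratios, so the counts were repeated for genes with a summed count of 1000 or more, an alternative chosen after seeing the data. Of 31 such members 15 were higher in pup 1 and 2 in pup 2, against 25.5% and 17.2% of the 8852 protein-coding genes with such a count. The median log2 ratio was −0.10 over these members and −0.02 over these coding genes. The 5th and 95th percentiles were −0.36 and 0.10 over these members and −0.21 and 0.21 over these coding genes. The genes are not independent replicates, and the difference is one between 2 animals.

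The genes higher in pup 1 were Usp18, Oasl1, Irf1, Rtp4, Ifit3, Ifit2, Isg15, Oasl2, Ifnar2, Rsad2, Irf9, Oas1g, Ifit1, Irf7 and Ifi35. Usp18 had 1035 and 525 counts and was 1.58-fold higher in pup 1 (interval 1.42 to 1.76), and only 0.203% of the well-counted coding genes had a lower ratio of pup 2 to pup 1. Oasl1 (1448 and 887 counts) was 1.31-fold higher in pup 1 (1.20 to 1.42), Irf1 1.26-fold (1.20 to 1.33) and Rtp4 1.21-fold (1.15 to 1.28). Ifit3, Ifit2, Isg15 and Oasl2 followed at 1.21-fold, 1.20-fold, 1.18-fold and 1.16-fold, and the others at 1.12-fold or less. By role, pup 1 was higher in 3 of 4 factors, 3 of 4 IFIT genes, 3 of 6 OAS genes, 2 of 4 genes of the ISG15 system, 2 of 7 other induced genes, 1 of 4 receptor chains, 1 of 6 other antiviral effectors and 0 of 4 sensors. The genes higher in pup 2 were Mx1, Samhd1 (1.13-fold, 1.05 to 1.21) and Ifnar1 (1.09-fold, 1.01 to 1.17). The kinases and STATs showed no gene higher in pup 1 and 2 of 5 higher in pup 2. The further restraining genes, a list without Usp18, showed none higher in pup 1 and 1 of 5 higher in pup 2. The further interferon regulatory factors had 2 of 6 higher in pup 1 and 1 of 6 in pup 2, and the sensor adaptors 0 of 5 and 1 of 5. Over all genes tested the shares were 16.6% higher in pup 1 and 13.0% in pup 2.

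**Figure D5:**
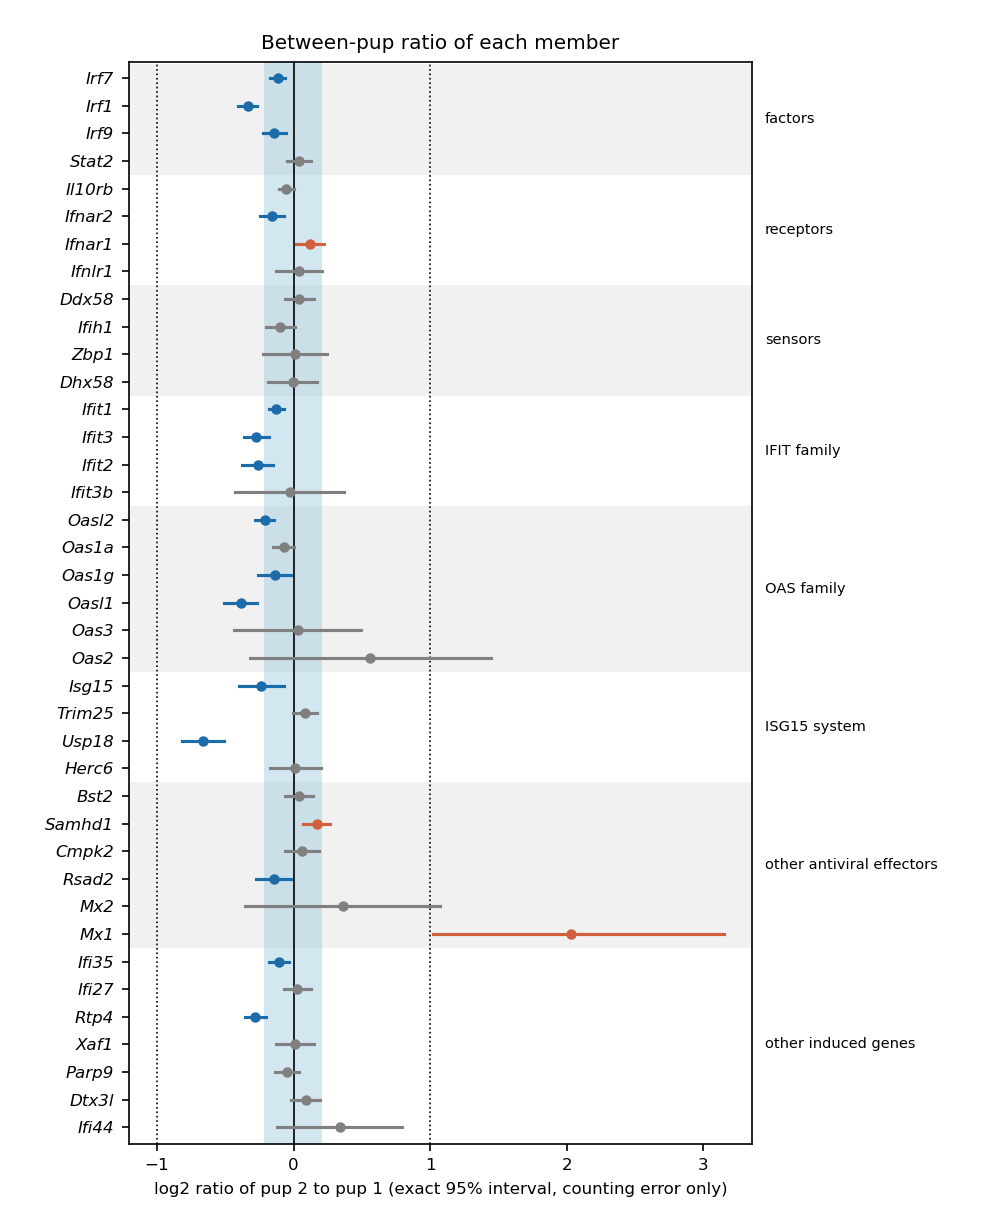
Log2 ratio of pup 2 to pup 1 for each of the 39 genes by role, with its exact 95% counting interval, in blue where the interval lies under 0, in red where it lies above 0 and in grey where it holds 0. Dotted lines mark 2-fold. The shaded band is the 5th to 95th percentile of coding genes with a summed count of 1000 or more (−0.21 to 0.21). Left of the band lie 7 points, Usp18 the farthest, and right of it 4 points, Mx1 the farthest. Those 4, Mx1, Oas2, Mx2 and Ifi44, each have a summed count under 200, and of them only Mx1 has an interval clear of 0.

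Several values moved with pup beside these ratios. Of the 6 epithelial markers, 3 had the interval of the ratio of pup 2 to pup 1 under 1. These were Krt8 (ratio 0.866), Fabp2 (0.891) and Epcam (0.926), while 1, Vil1 (1.07), had it above 1. The macrophage markers summed to 178 and 173 TPM, with the interval under 1 in 2 of 4 (Csf1r 0.875, C1qb 0.905) and above 1 in 0. The lymphocyte markers summed to 0.72 and 0.39 TPM on 42 and 17 counts. Of the plasmacytoid dendritic cell markers, 3 of 4 detected, the interval of the ratio of pup 2 to pup 1 lay under 1 for Klk1 (ratio 0.619, 0.550 to 0.695) and above 1 for Ly6d (2.03, 1.54 to 2.69) and Siglech (1.60, 1.05 to 2.46). The exocrine pancreas markers, 4 of 4 detected and led by Clps and Ctrb1, summed to 192 and 274 TPM and were all higher in pup 2. The part of all these markers in the ratios was not tested. Scaling by total counts left 12 members with the interval under 1 and 5 above it, against 11.5% and 18.5% of all genes tested. Scaling by the spike-ins (534 and 200.0 reads) gave a median log2 ratio of 1.08 over all genes and 1.05 over the members. Spike-in scaling put all 39 above 1, against 87.2% of all genes tested. It put 10 members beyond 2-fold, a share that was not computed over all genes. The directions above thus hold relative to the other genes of each library.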

How the data were processed

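Total RNA-seq of the intestine of 2 newborn littermates was used, 1 library each and 1 group. The authors deposited expected counts, which are estimated counts, with TPM and FPKM values per gene and transcript, posterior means and SDs of the counts, and the percent of a gene held by each transcript, per the file headers. Reads were assigned on mm10 with GENCODE M4, per a deposited text file. No source used here names the aligner, the quantifier or the use of strand. The total count over genes was 44568098 and 34797495.

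Names, positions and reading frames were taken from GENCODE M21 (GRCm38), which matched 42462 of 43346 genes (98.0%). The 39 members and all other lists were chosen with earlier results of these data known. Named were all members, the 4 highest genes of each further pathway list, every interferon gene with a read and the 2 highest of each marker list, apart from a few that are not reported here. Genes outside that rule were added to the text with their values known.

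Detection meant at least 1 TPM in each pup. Pairs are log2 ratios of TPM + 0.1 within a pup and were called beyond the spread when the mean exceeded 2 SD. Ratios between pups took the rounded expected counts, TMM effective library sizes (edgeR 4.0.16, R 4.3.3) and exact intervals (SciPy 1.17.1). The ratio test was run on simulated counts with known fold changes. They were drawn with counting error only, which the interval assumes, so the run checks the computation and not the spread between animals. Aligned identities came from Biopython 1.88. Python 3.11.15 with pandas 2.3.3, numpy 2.4.6 and matplotlib 3.10.9 did the rest. Alternatives were FPKM, rescaling over nuclear coding genes, posterior means, other pseudocounts and thresholds, counts without length scaling, DESeq2 1.42.0 size factors, total counts, spike-ins and each pup alone.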

Additional observations from a re-analysis of the deposited data

How the results depend on the processing

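The number of detected members was 34 to 35 with each pup alone, 36 at a limit of 0.5 TPM, 33 at 2 TPM and 35 with posterior mean TPM. In FPKM the median over members was 14.3, and rescaling over nuclear coding genes gave 22.8 TPM, while only members at 1 TPM or more gave 24.0 TPM. FPKM and the rescaling change all genes of a library by the same factor. In FPKM the role medians were 37.1 (factors), 29.1 (receptors), 9.04 (sensors), 13.6 (ISG15 system), 17.7 (OAS), 19.6 (IFIT), 8.29 (other antiviral effectors) and 37.0 (other induced genes). Rescaled over nuclear coding genes they were 59.2, 46.5, 14.4, 21.7, 28.2, 31.2, 13.2 and 59.0 TPM in the same order. With each pup alone the median over members ran from 16.8 to 18.9 TPM, and the role medians from 43.6 to 49.2, 35.5 to 37.3, 11.2 to 11.4, 15.9 to 18.1, 20.9 to 23.4, 22.7 to 26.2, 10.3 to 10.4 and 44.8 to 47.8 TPM. On read counts without length scaling the log2 ratio of Isg15 to Usp18 turned to −0.22 and that of Ifih1 to Ddx58 to 0.039. A minimum summed count of 50 left 0 members beyond 2-fold, since Mx1 has fewer reads, and the smaller set tested is that alternative's construction. Spike-in scaling gave 10 members beyond 2-fold, a share not computed over all genes. The median log2 ratio was then 1.05 over the members and 1.08 over all genes, and the cause of the shift was not tested. DESeq2 size factors, total counts and posterior mean counts gave 1 member beyond 2-fold, Mx1 each time. No paired analysis was possible because both libraries form 1 group and no comparison between groups exists. Depth limits the genes with few reads: 5 members had a summed count under 200, and the median half-width of a member's counting interval was 0.11 on the log2 scale.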
